A study of Sus scrofa with 17 samples.

Results

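Vertebrate striated muscle builds the same contractile unit, the sarcomere, from parallel gene families. The heart and skeletal muscle draw on partly different isoforms of actin, the troponins, the myosin light chains and myosin-binding protein C. Fast and slow skeletal fibres also differ in part of these isoforms. Some skeletal isoforms are also transcribed in the fetal heart, and the return of skeletal alpha actin in the loaded adult ventricle is a classical sign of hypertrophy in rodents. The 10 genes described here are such skeletal-type members, taken by symbol out of 35670 genes in the count table. They are ACTA1 of the thin filament, the troponin genes TNNT1, TNNT3, TNNI1, TNNI2 and TNNC2, the thick filament genes MYL1, MYBPC1 and MYBPC2, and ACTN3 of the Z-disc. Each symbol stood on 1 row.

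They were measured by RNA sequencing of right ventricular muscle from 17 pigs, all of which had pressure overload of the right ventricle, so no unloaded heart serves as a reference. Mononuclear cells from umbilical cord blood were given repeatedly to 7 animals (multidose) and once to 5 (single dose), and 5 received vehicle (vehicle control). Breed, age, sex, doses and times are not given per animal in the labels, and the series text states that each library comes from an individual animal. In 5 libraries, multidose 1 to 4 and single dose 1, the library name starts with M1, and in the other 12, with all controls among them, with M8 or M9. Among the M1 names only that of multidose 4 ends in _R, whereas most M8 names and all M9 names do. What the names and this ending stand for is not given in the sources used here. Differences by this ending were not tested.

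Library totals ran from 21754800 to 40969168 counts for M1 names and from 40621934 to 61144663 for the others. Multidose 4, the M1 library whose name ends in _R, had the 40969168 counts. The other M1 libraries were shallower than it and all M8 or M9 libraries, so fewer counts stand behind their values for a low gene. Cardiomyocyte genes were abundant in all libraries, with 53622 to 94786 CPM (the count per library total after TMM scaling, on the usual CPM scale) summed over 15 markers. By edgeR's quasi-likelihood test, 0 of 15884 tested genes passed an adjusted p of 0.05 in any of the 3 dosing comparisons (0%), and 2220 (14%) passed between M1 and M8 or M9 names within dosing group. The latter count was 858 without single dose 1, 1247 without multidose 6, 1450 without multidose 5 and 11 with the replicate number as a block.

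The members' counts differed by orders of magnitude. Together they took between 1.55% and 4.25% of a library's counts, nearly all of it from ACTA1, which alone took 1.52% to 4.13%. TNNT1 had 3448 to 66244 counts per library and MYL1 58 to 1915. TNNI1 had 29 to 370 counts, MYBPC2 10 to 143, TNNC2 0 to 93 and TNNI2 0 to 35. MYBPC1, TNNT3 and ACTN3 stayed at or below 2, 6 and 6 counts per library and did not pass the filter on low counts, so that 7 of the 10 members were tested. Counts are not scaled for gene length, so they set no order of abundance between genes.

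**Figure D1:**
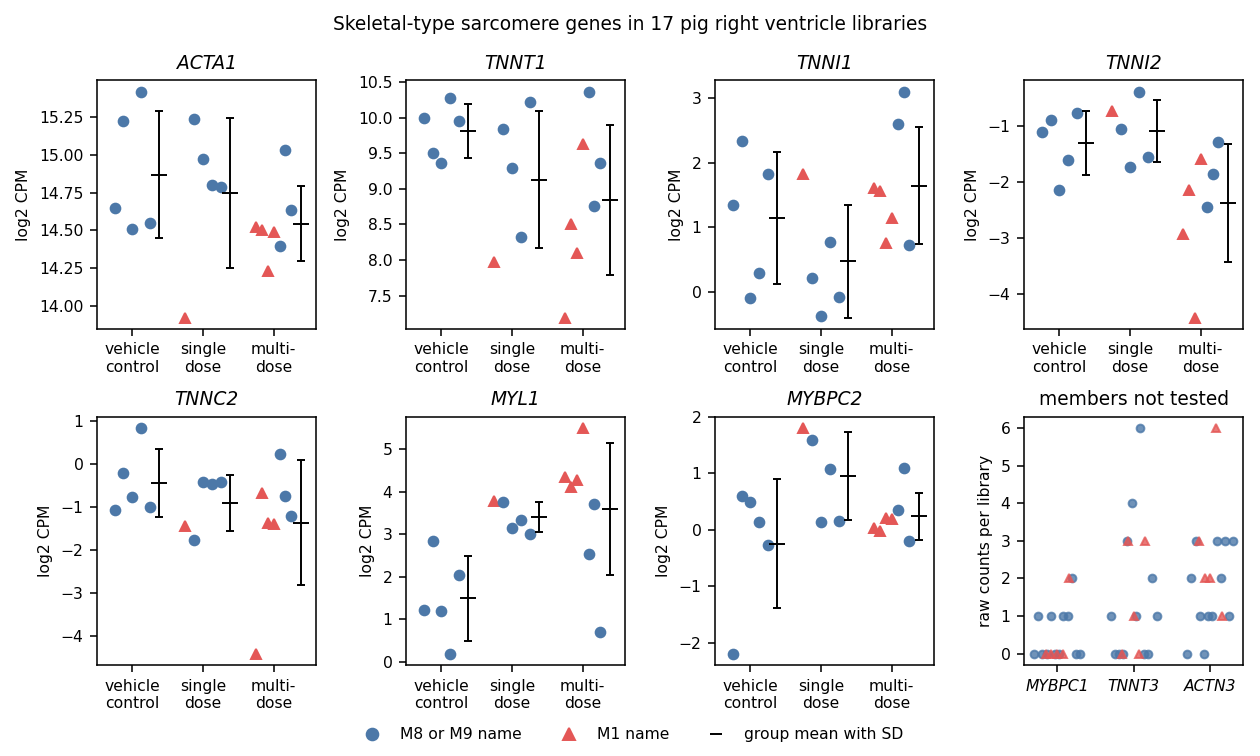
Level of each tested member by dosing group (y axes: log2 CPM), with triangles for M1 names, circles for M8 or M9 names and bars for the group mean with SD; the last panel gives raw counts of the 3 untested members. MYL1 lies between 7.96 and 13.8 CPM in all single dose libraries, above every control, and the lowest TNNT1 values (146, 250.1 and 273 CPM) belong to M1 libraries.

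The member with the largest fold changes against control was MYL1 (ENSSSCG00000016157, chromosome 15, 113038083 to 113051315 on Sscrofa11.1), which encodes the essential light chain of fast skeletal myosin. In the controls it measured 2.29, 7.12, 2.23, 1.09 and 4.08 CPM for animals 1 to 5. After a single dose it measured 13.8, 13.4, 8.87, 10.1 and 7.96 CPM. After multiple doses it ranged from 1.57 to 45.4 CPM with a median of 17.3 CPM. The single dose libraries all lay above the controls, whereas the multidose group overlapped them through multidose 7 at 1.57 CPM and multidose 5 at 5.70 CPM.

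For MYL1 the log2 fold change between single dose and control was 1.69 (SE 0.62), a fitted 3.22-fold difference, with an unadjusted p of 0.0147 and an adjusted p of 0.891 by edgeR. Between multidose and control it was 2.38 (SE 0.61), or 5.22-fold, with an unadjusted p of 0.00111 and an adjusted p of 0.366 by edgeR. Neither passed. Groups that do not overlap were seen for 1 of the 7 tested members in the single dose comparison, against 0.875% of all tested genes. They were seen for 0 members between multidose and control, against 0.271%, and for 0 between multidose and single dose, against 0.0693%. Among M8 and M9 libraries the value was 1.58 for single dose and 1.01 for multidose.

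MYL1 was also the member that separated the library names. The 5 M1 libraries measured 20.2, 17.3, 19.3 and 45.4 CPM (multidose 1 to 4) and 13.8 CPM (single dose 1). The 12 others ran from 1.09 to 13.4 CPM with a median of 6.41 CPM. The 2 sets did not overlap, although the lowest M1 value and the highest other value lay close together; the same held for 5.74% of all tested genes. Within dosing group the log2 difference was 1.51 (SE 0.57, adjusted p = 0.0856 by edgeR), which did not pass, while the other tools put it past the threshold (adjusted p = 0.0374 by DESeq2 and 0.0369 by limma-voom). Since 4 of the 7 multidose libraries and no control carry an M1 name, dosing and name are partly confounded, for this gene as for all others.

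TNNT1 (ENSSSCG00000025353, chromosome 6, 59351445 to 59365584) encodes slow skeletal troponin T, the subunit that anchors the troponin complex to tropomyosin. It lies next to TNNI3, the cardiac troponin I gene, at a distance of 1244 bases in the RefSeq annotation. Control animals 1 to 5 measured 1021, 724, 659, 1242 and 989.97 CPM. Single dose animals 1 to 5 measured 250.1, 915.2, 625, 320.2 and 1194 CPM. The multidose animals ranged from 146 to 1323 CPM with a median of 431 CPM. The groups overlapped, and each dosed group had animals far below the lowest control of 659 CPM.

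The lowest TNNT1 values but for single dose 4 (320.2 CPM) were in M1 libraries. Multidose 1, 2 and 3 and single dose 1 measured 146, 363, 273 and 250.1 CPM. However, multidose 4, the M1 library whose name ends in _R, measured 791 CPM. The M8 and M9 libraries ran from 320.2 to 1323 CPM, with a median of 820 CPM. The log2 difference between names within dosing group was -1.21 (SE 0.44, unadjusted p = 0.0138, adjusted p = 0.0745 by edgeR). It passed with DESeq2 (adjusted p = 0.0176), with limma-voom (adjusted p = 0.0463) and in edgeR without multidose 4 (-1.62, adjusted p = 0.0170), and over all fits that left out 1 library the adjusted p ran from 0.0170 to 0.265. Between multidose and control the value was -0.70 (SE 0.45, edgeR adjusted p = 0.505), against -0.22 among M8 and M9 libraries. Between single dose and control it was -0.49 (SE 0.49, edgeR adjusted p = 0.900), against -0.29 among those libraries.

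**Figure D2:**
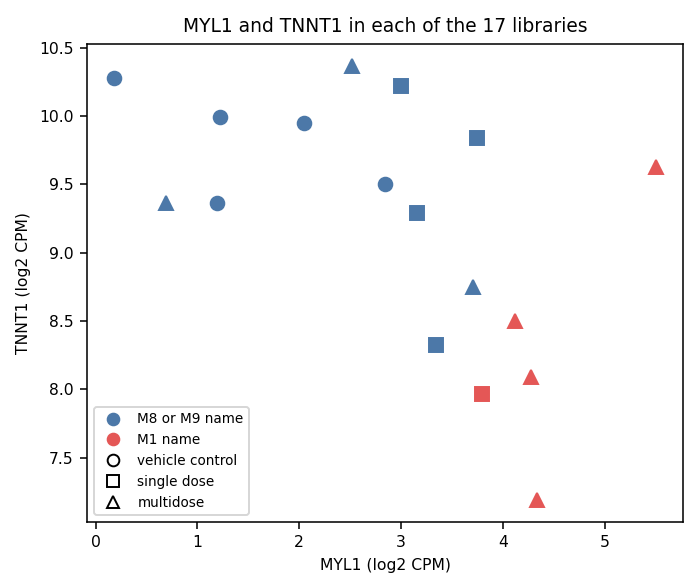
Level of TNNT1 (y axis, log2 CPM) against MYL1 (x axis, log2 CPM) in each library, with colour for the library name and shape for the dosing group. The M1 libraries hold the highest MYL1 levels (13.8 to 45.4 CPM), and all of them but multidose 4 lie low for TNNT1.

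ACTA1 (ENSSSCG00000010190, chromosome 14, 60412651 to 60415687) encodes skeletal alpha actin. The controls measured 25636, 38327, 23305, 43846 and 23971 CPM, and the single dose animals 15521, 38743, 32225, 28542 and 28339 CPM. The multidose animals ranged from 19207 to 33588 CPM with a median of 23169 CPM. No group was separate from another. Multidose against control gave a log2 value of -0.36 (SE 0.22, edgeR adjusted p = 0.498). Single dose against control gave -0.11 (SE 0.24, edgeR adjusted p = 0.954), and 0.036 among M8 and M9 libraries. The 5 M1 libraries lay between 15521 and 23578 CPM and the 12 others between 21559 and 43846 CPM, a log2 difference of -0.50 within dosing group (SE 0.23, unadjusted p = 0.0423, adjusted p = 0.151 by edgeR). The alpha actin genes are near-identical in coding sequence, and how reads that match several of them were counted is not given in the sources used here, so the ACTA1 and ACTC1 values are uncertain to that extent.

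The skeletal-type inhibitory and calcium-binding troponin genes had far lower counts than ACTA1 and TNNT1, and none of their differences passed. TNNI1 (ENSSSCG00000024061, chromosome 10, 23788279 to 23800554) encodes slow skeletal troponin I, which is also the troponin I of the fetal heart. It measured 2.49, 4.97, 0.893, 1.18 and 3.48 CPM in the controls and 3.50, 1.12, 0.728, 1.67 and 0.901 CPM after a single dose. After multiple doses it ranged from 1.61 to 8.49 CPM with a median of 2.91 CPM. The highest values were those of multidose 6 (8.49 CPM) and multidose 5 (5.97 CPM), both with M8 names, and the M1 libraries lay inside the range of the others at 1.65 to 3.50 CPM. Between multidose and single dose the log2 value was 1.26 (SE 0.53, unadjusted p = 0.0296, edgeR adjusted p = 1), against 2.27 among M8 and M9 libraries. Against control it was 0.51 (SE 0.51) for multidose and -0.74 (SE 0.56) for single dose.

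TNNI2 (ENSSSCG00000033260, chromosome 2, 1251566 to 1253883), fast skeletal troponin I, stayed below 1 CPM in all libraries, at 0.179 to 0.538 CPM in controls, 0.251 to 0.714 CPM after a single dose and up to 0.363 CPM after multiple doses. In multidose 3 it had no count, where 3 counts would have been 0.145 CPM. Its log2 value was -0.95 for multidose against control (SE 0.48, unadjusted p = 0.0620) and -1.19 for multidose against single dose (SE 0.48, unadjusted p = 0.0236), with adjusted p of 0.413 and 1 by edgeR. TNNC2 (ENSSSCG00000007424, chromosome 17, 48025621 to 48026762), fast skeletal troponin C, measured 0.430 to 1.74 CPM in controls, 0.248 to 0.703 CPM after a single dose and up to 1.12 CPM after multiple doses. It had no count in multidose 1, where 3 counts would have been 0.127 CPM. Its log2 difference between names was -1.04 (SE 0.60, adjusted p = 0.254 by edgeR), and the 5 M1 libraries held 41 counts of it in all. TNNT3 (ENSSSCG00000031903), fast skeletal troponin T, had 25 counts over the 17 libraries and was at 0 in 7 of them.

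In the thick filament, MYBPC2 (ENSSSCG00000003218, chromosome 6, 55281991 to 55310184) encodes the fast skeletal form of myosin-binding protein C. It measured 0.172, 1.47, 1.35, 1.05 and 0.786 CPM in controls and 3.45, 2.95, 1.06, 2.06 and 1.07 CPM after a single dose. The 2 groups overlapped, with the lowest value in vehicle control 1 and the 3 highest in single dose animals. Single dose against control gave a log2 value of 1.12 (SE 0.45, unadjusted p = 0.0232, edgeR adjusted p = 0.891), and 0.88 among M8 and M9 libraries. Multidose animals lay at 0.826 to 2.09 CPM, a value of 0.29 against control (SE 0.42), and the library names made little difference (0.075, SE 0.44). MYBPC1 (ENSSSCG00000000866), the slow skeletal form, had 8 counts in all and none in 11 of 17 libraries. ACTN3 (ENSSSCG00000038323), the alpha actinin of fast fibres, had 34 counts in all, 14 of them in the 5 M1 libraries. When the filter on low counts was left out, the log2 difference of ACTN3 between names was 2.27 (SE 0.89, adjusted p = 0.131 by edgeR).

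Taking the 7 tested members as a group, 0 passed in each of the 4 comparisons by edgeR, beside 0% of all genes in the dosing comparisons and 14% between names. DESeq2 and limma-voom also called 0 members in the dosing comparisons, and between names each called 2, MYL1 and TNNT1. The 14% is that of edgeR, and the share of all genes that DESeq2 and limma-voom called between names is not given here. At an unadjusted p under 0.05 there was 1 member for multidose against control (12.6% of all genes), 2 for single dose against control (5.26%), 2 for multidose against single dose (2.11%) and 3 between names (29.9%). Signs were mixed: 3 positive and 4 negative against control in both dosed groups. The members' median log2 value was -0.36 for multidose and -0.11 for single dose, beside -0.0051 and 0.0025 over all genes, and -0.30 between names, beside -0.014.

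**Figure D3:**
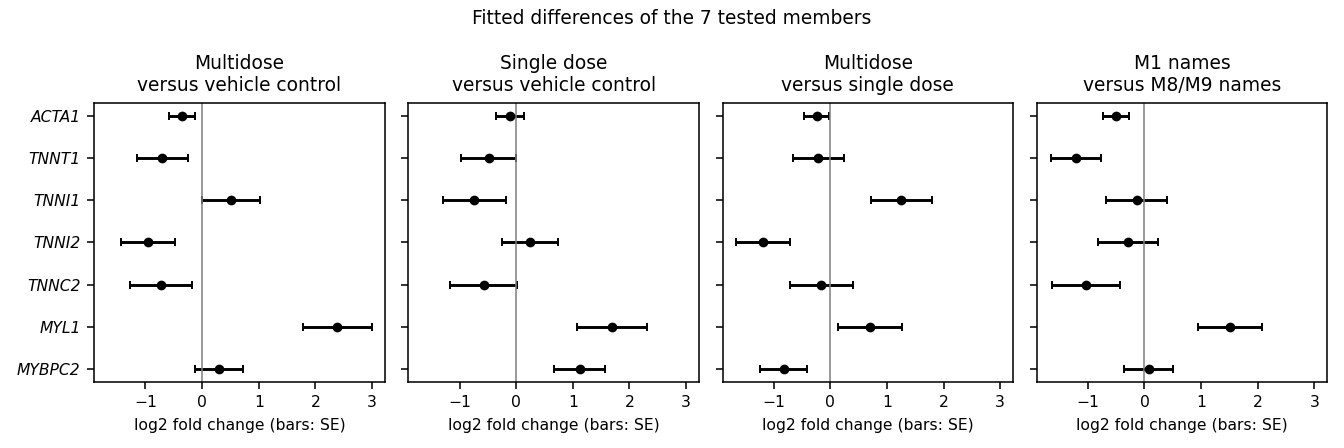
Fitted log2 fold changes of the 7 tested members in the 3 dosing comparisons and between library names within dosing group (points, first group minus second, with bars of 1 SE). MYL1 has the highest value against control in both dosed groups (2.38 and 1.69), and TNNT1 and MYL1 lie on opposite sides between names (-1.21 and 1.51).

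Each member has a cardiac partner, and their ratio within a library does not depend on library scaling. The partners ACTC1, TNNT2, TNNI3, TNNC1, MYL3, MYBPC3 and ACTN2 were all tested, and 0 of 7 passed in any comparison by edgeR. Positive values were seen for 6 partners in multidose and 6 in single dose against control, beside 7825 and 8005 of 15884 genes. For multidose against single dose 7 were positive, beside 8028 of all genes, and between names 4, beside 7718. At an unadjusted edgeR p under 0.05 there were 2 partners for multidose against control (12.6% of all genes) and 1 for single dose against control (5.26%). There were 0 for multidose against single dose (2.11%) and 1 between names (29.9%). DESeq2 and limma-voom also called 0 partners in any comparison. The share of ACTA1 in the counts of ACTA1 and ACTC1, the cardiac alpha actin gene, was 84.4% to 92.2% in the 5 M1 libraries and 90.5% to 99.4% in the others. Among dosed animals the means were 87.6% ± 3.35 (SD, n = 5) and 93.9% ± 2.16 (SD, n = 7), which gave p = 0.00505 in the exact permutation test (two-sided, 792 regroupings) and 0.0566 after adjustment over 28 tests. ACTC1 itself spread from 254 to 4361 CPM, with the lowest value in vehicle control 4, where the ACTA1 share was 99.4% against 93.8% to 96.2% in the other controls.

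The share of TNNT1 in the counts of TNNT1 and TNNT2, the cardiac troponin T gene, was 6.70% to 12.3% in controls and 1.44% to 11.3% after multiple doses. The means were 9.94% ± 2.15 (SD, n = 5) and 5.25% ± 3.39 (SD, n = 7), with p = 0.0328 in the exact permutation test and 0.115 after adjustment. Without the M1 libraries the multidose mean was 7.39% ± 3.73 (SD, n = 3, exact permutation p = 0.286, adjusted p = 0.600 over 21 tests).

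MYL1 made up a far smaller part of the counts of MYL1 and MYL3, the ventricular light chain gene, at 0.0300% to 0.149% in controls and 0.152% to 0.266% after a single dose. All 5 single dose animals lay above all 5 controls, with means of 0.204% ± 0.0489 and 0.0787% ± 0.0453 (SD, n = 5 each). The exact two-sided permutation p of 0.00794 is the smallest that 252 regroupings allow, and its adjusted p was 0.0566. Without the M1 libraries the single dose mean was 0.201% ± 0.0557 (SD, n = 4, exact permutation p = 0.0159, adjusted p = 0.333 over 21 tests). In all, 10 of the 28 tests had an unadjusted exact permutation p under 0.05 and 0 passed after adjustment. When the M1 libraries were left out, 1 of 21 tests had an unadjusted exact permutation p under 0.05 and 0 passed. These are shares of counts, not scaled by coding length.

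**Figure D4:**
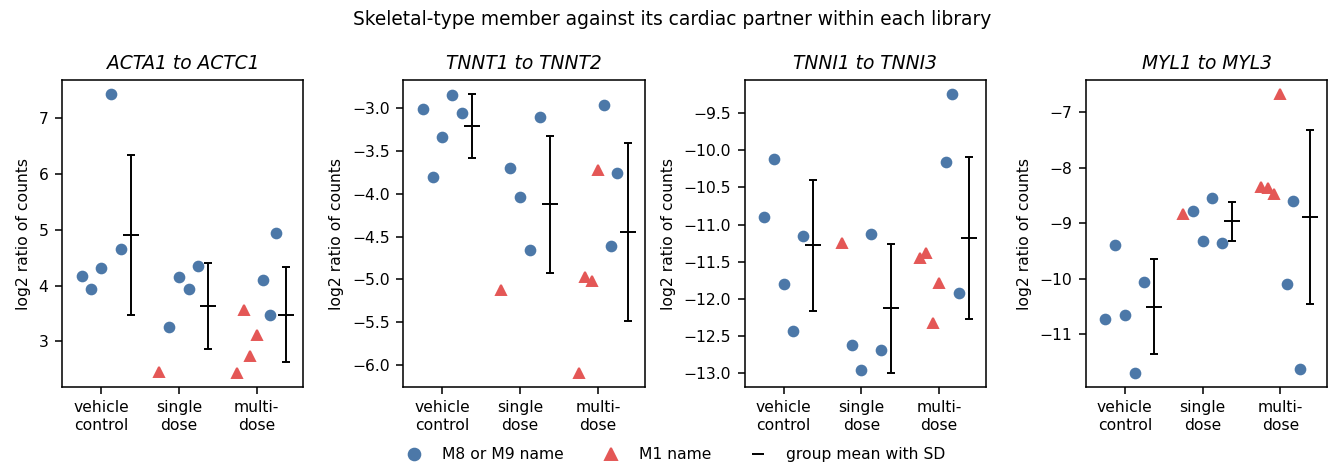
Log2 ratio of counts of a skeletal-type member to its cardiac partner in each library, by dosing group (triangles for M1 names, circles for M8 or M9 names, bars for mean with SD). The MYL1 to MYL3 ratio is above all controls in the 5 single dose libraries, and the ACTA1 to ACTC1 ratio of vehicle control 4 (7.43) lies apart from the other controls (3.93 to 4.66).

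Over the 12 M8 and M9 libraries no pair of members had a correlation that passed after adjustment. Of 21 pairs of members, MYL1 and MYBPC2, both thick filament genes of fast fibres, had the closest relation (Pearson r = 0.593, permutation p = 0.0319, adjusted p = 0.670, Spearman rho = 0.727, permutation p = 0.00981, adjusted p = 0.206). Without the 2 libraries farthest from the median of MYL1 r was 0.733, and with group means removed it was 0.428. MYL1 and TNNI1 had r = 0.212 (permutation p = 0.506) over the 12 libraries but 0.866 once group means were removed. That 0.866 is the largest of the 21 values with group means removed, and it was not tested. TNNT1 and ACTA1, both thin filament genes, had r = -0.0587 (permutation p = 0.856).

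Out of 11424 named genes with an average level of 1 CPM or more, the levels most like those of MYL1 over the same 12 libraries were those of NXT2 (r = 0.902), CFAP36 (0.869) and TCEANC (0.863). Over all 17 libraries these were 0.678, 0.859 and 0.799. For MYBPC2 the closest were RPRD1A (0.893), RCOR3 (0.868) and NEB, the nebulin gene (0.841), against 0.644, 0.686 and 0.342 over 17 libraries. ACTA1 was closest to HOMER2 (0.899), BAG1 (0.890) and ZNF322 (0.853), against 0.884, 0.773 and 0.188 over 17. TNNT1 was closest to PSME3IP1 (0.890), OSTF1 (0.888) and PAFAH2 (0.861), against -0.108, 0.0513 and 0.615 over 17, so the first and second of these were not alike once the M1 libraries were included. TNNI1 was closest to POLR1F (0.842) and PPP4R2 (0.837), against 0.745 and 0.794 over 17. These are the highest of many correlations over few libraries and are given as a description.

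Markers of skeletal muscle cells give the context for these levels. Of 25 such markers 22 were in the table by symbol. MYOD1 and MYF5, which set the skeletal muscle lineage, PAX7 of satellite cells and PVALB, parvalbumin of fast fibres, had no count in any library. MYF6, MYH4, MYH8 and CHRNA1 stayed under 0.1 CPM everywhere. The other markers in the table reached 0.1 CPM in at least 1 library. MYH3 was among them, at 0.685 CPM (multidose 5) to 5.73 CPM (vehicle control 2), so the list was not absent as a whole. The summed level of the list was 140.2 to 373 CPM in controls, 279 to 479 CPM after a single dose and 251 to 489 CPM after multiple doses, and 342 to 489 CPM in M1 against 140.2 to 435 CPM in the other libraries. PYGM, muscle glycogen phosphorylase, which heart muscle also uses, made up most of it with a mean of 304 CPM. Of the 8 markers tested, 0 passed in each of the 4 comparisons by edgeR, DESeq2 or limma-voom. At an unadjusted edgeR p under 0.05 there were 3 for multidose against control (12.6% of all genes) and 2 for single dose against control (5.26%). There was 1 for multidose against single dose (2.11%), and there were 2 between names (29.9%).

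Some markers of other cell types were also called between library names, where 5.92% of all tested genes rose and 8.06% fell. In the M1 libraries 3 of 6 fibroblast markers rose and 0 fell, namely PDGFRA, a growth factor receptor of fibroblasts (1.25, SE 0.24, adjusted p = 0.00476 by edgeR), COL3A1, a fibrillar collagen, and DCN, the matrix proteoglycan decorin. The summed level of the fibroblast list was 3866 to 7011 CPM in M1 libraries and 2350 to 5477 CPM in the others. Of 15 cardiomyocyte markers 2 were called by edgeR, both lower, near the share of all genes called in either direction (14%). They were NPPA (-3.86) and NPPB (-3.70), the natriuretic peptide genes of stretched myocardium. The summed cardiomyocyte level was 71664 to 94786 CPM in M1 libraries against 53622 to 92521 CPM in the others. Of 9 smooth muscle and mural markers 1 was called, as lower, likewise near the share of all genes called in either direction. It was CNN1, calponin of smooth muscle (-2.19, SE 0.48, adjusted p = 0.00879 by edgeR). The summed level of this list was 739 to 1133 CPM in M1 libraries against 951 to 2101 CPM in the others. Of 7 tested atrial markers 1 rose, the potassium channel gene KCNA5 (1.08, SE 0.25), and 1 fell, SLN, sarcolipin (-2.91, SE 0.84, adjusted p = 0.0323 by edgeR). By limma-voom 0 atrial markers fell. The summed atrial levels were 147 to 210.05 CPM in M1 libraries against 106 to 209 CPM in the others. The part of these cell types in the MYL1 and TNNT1 values was not tested, and in bulk tissue fewer cells of a type and less RNA per cell cannot be told apart.

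Among 21 tested regulators of sarcomere genes 3 fell in the M1 libraries and 0 rose, beside 8.06% and 5.92% of all genes. TEAD4, a factor that binds the MCAT element of muscle genes, measured 18.5 ± 2.42 CPM in the 5 M1 libraries and 28.5 ± 5.44 CPM in the 12 others (mean ± SD), a log2 difference of -0.59 (SE 0.15, adjusted p = 0.0152 by edgeR). GATA4, a core cardiac transcription factor, measured 81.8 ± 8.87 CPM in the former and 119 ± 23.2 CPM in the latter, and HDAC4, a histone deacetylase that represses MEF2 factors, 6.26 ± 0.759 and 10.9 ± 3.53 CPM. DESeq2 and limma-voom counted 4 and 2 regulators that fell, and the share of all genes that each of these tools called is not given here. SRF, the serum response factor that drives alpha actin genes, had a value of -0.63 (SE 0.22, adjusted p = 0.0637 by edgeR). In the dosing comparisons 0 of the 21 regulators passed by edgeR, DESeq2 or limma-voom. At an unadjusted edgeR p under 0.05 there were 3 for multidose against control (12.6% of all genes) and 1 for single dose against control (5.26%). There were 0 for multidose against single dose (2.11%). Of the 10 myosin heavy chain genes listed 5 were tested, of which MYH15 rose between names (4.83) and none was called between dosing groups. Among the adult fast chain genes, MYH1 and MYH4 had 12 counts and 1 count over all libraries. No level of MYH2, another adult fast chain gene, is given here.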

How the data were processed

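The authors deposited raw counts per Ensembl gene for 17 libraries of total RNA sequenced on an Illumina NextSeq instrument, per the labels. HISAT2 2.1.0, Subread 1.6.2, SAMtools 1.7, Trimmomatic 0.33 and FastQC 0.11.7 with the Sscrofa11.1 build are listed in the submitters' processing notes; for strand and for reads matching several genes, the setting is not given in the sources used here. Non-coding genes of the RefSeq annotation overlap MYL1, TNNC2 and MYBPC1, so reads there may come from either. Totals ran from 21754800 to 61144663 counts. Symbols come from the table and positions from RefSeq, matched by symbol.

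Counts were filtered with filterByExpr (15884 of 35670 genes kept), scaled by TMM and fitted over all libraries with edgeR 4.0.16 in R 4.3.3 (quasi-likelihood, robust, 1 coefficient per group). A second fit added a term for M1 names. P-values were adjusted by Benjamini-Hochberg over all genes (threshold 0.05). SEs were derived from the fold change and F statistic. CPM use TMM-scaled totals and log2 CPM a prior count of 2. Permutation tests of isoform shares were exact and those of correlations used 100000 resamples. Shares were planned per coding length but used plain counts, since no lengths were at hand. DESeq2 1.42.0, limma-voom (limma 3.58.1), other scalings and filters, a replicate block, name-restricted fits and leaving out each library were the alternatives. The log2 ratio was added after seeing the data. The fits were tested on simulated data first.

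Members and lists were chosen with earlier results of these data known. All members are named, with partners; of other lists up to 4 genes by smallest p between names and those under 0.1 CPM; and the 3 genes most like each member, 1 of which is not reported here. Replicate numbers are not stated to pair animals, so the main fits used no pairing. Of 15 same-numbered pairs 4 had a correlation of deviations over 0.1 (-0.218 to 0.407 over all 15), which cannot settle whether animals were paired.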

Additional observations from a re-analysis of the deposited data

Results flagged for a closer look

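In 51 combinations of a gene or ratio with a dosing group, 7 values lay far from the rest of their group by Dixon's test, where chance flags about 1 in 20. The ACTA1 to ACTC1 log2 ratio was 7.43 in vehicle control 4, against 3.93 to 4.66 in the other controls. The TNNI2 to TNNI3 log2 ratio was -12.34 in single dose 4, on 35 counts of TNNI2, against -14.44 to -13.86 in the rest of its group. MYBPC2 stood at 1.09 log2 CPM in multidose 6 (91 counts), against -0.20 to 0.36 in the other multidose libraries. TNNC2 had no count in multidose 1, which gives -4.42 log2 CPM and a TNNC2 to TNNC1 log2 ratio of -18.9 that rests on the 0.5 added to each count. MYBPC1 was flagged at -3.41 log2 CPM in multidose 4 for 2 counts and at -3.90 log2 CPM in single dose 4 for 1 count, where the other libraries of each group had none.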

How the results depend on the processing

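TNNT1 and MYL1 passed between names with DESeq2 (2 members) and limma-voom (2), and with ACTA1 (adjusted p = 0.0347 by edgeR) when group terms were dropped (3 members). Leaving out 1 library gave 0 to 1 members, the 1 being TNNT1 without multidose 4; in the dosing comparisons and the isoform shares it gave 0 throughout.

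All genes past the threshold between names numbered 2220, and 858 to 2745 with 1 library left out (858 without single dose 1, 1247 without multidose 6, 1450 without multidose 5), 712 in multidose alone and 3783 without group terms. For multidose and single dose against control DESeq2 called 8 and 10 genes; leaving out 1 library gave 0 to 1 for single dose against control (1 without single dose 2 or 5) and 0 to 1 for multidose against single dose. The replicate block gave 11 genes between names and 1 for multidose against control, and no member; TNNI1 turned to 0.13 and TNNI2 to 0.31 between names under the block. Of 17 libraries 1 correlated best with its own number. Without the M1 libraries, or with the name as covariate, the multidose against single dose values turned for MYL1 (-0.57 and -0.17), TNNC2 (0.22 and 0.16) and TNNT1 (0.066 and 0.25). ACTA1 turned to 0.036 for single dose against control without the M1 libraries, but did not turn with the covariate. MYBPC2 turned to -0.41 between names in multidose alone. None of these values was called, and the causes were not tested. With 1 library left out, values crossed 0 for TNNC2 (-0.53 to 0.046) and TNNT1 (-0.57 to 0.12) for multidose against single dose, ACTA1 (-0.25 to 0.045) and TNNI2 (-0.0090 to 0.39) for single dose against control, and MYBPC2 (-0.42 to 0.39), TNNI1 (-1.13 to 0.27) and TNNI2 (-0.70 to 0.0044) between names. The isoform share could not be scaled by length; 0 of 28 tests passed with the log2 ratio and 0 of 21 without the M1 libraries. Depth limits TNNI2, TNNC2 and the 3 untested members most.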
